A study of Mus musculus with 12 samples.

Results

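Astrocytes release proteins that make synapses form, mature or fall silent, and 10 genes for such factors were followed here: the thrombospondins Thbs1, Thbs2, Thbs3 and Thbs4, Sparc and its relative Sparcl1 (hevin), the glypicans Gpc4, Gpc5 and Gpc6, and Chrdl1. They were taken by name from a count table of 52550 genes, a rule that uses no measured value. The names themselves were chosen with earlier results of these data known. Each of the 10 names stood on 1 row of the table, and all 10 passed the filter on low counts that left 14990 genes for testing.

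Thrombospondins are large secreted glycoproteins that induce structurally normal but postsynaptically silent synapses through the calcium channel subunit encoded by Cacna2d1. Hevin promotes the formation of excitatory synapses, and the protein SPARC opposes it. Glypicans are heparan sulfate proteoglycans held on the membrane by a lipid anchor and shed from it, and those made by Gpc4 and Gpc6 bring AMPA receptors to young synapses. Chrdl1 encodes an antagonist of bone morphogenetic proteins (BMPs) that drives the switch of AMPA receptors to forms with the Gria2 subunit as synapses mature.

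The libraries hold RNA bound to ribosomes of cortical astrocytes, obtained by translating ribosome affinity purification (TRAP): a ribosomal protein tagged with eGFP, expressed under the astrocyte promoter Aldh1l1, was pulled down from somatosensory cortex. Mice of both groups carried this Aldh1l1-TRAP transgene, were of a mixed FVB/C57 strain and were at postnatal day 40. The knockout group was Fmr1-/y and the control group Fmr1+/y, called wild type here. Fmr1 encodes FMRP, the RNA-binding protein missing in fragile X syndrome. Libraries 14, 16 and 18 were knockout and libraries 13, 15 and 17 wild type, each deposited as 2 entries that were summed. Values by library are given in the order 14, 16, 18 for the knockouts and 13, 15, 17 for the wild types. The labels do not say whether each library is a separate animal, and the p-values below reflect how far these libraries spread, which may be technical.

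Summed counts ran from 10953978 to 22397230 per library. Between 35.6% and 45.1% of the counts of knockout libraries 14 and 16 fell on 3 features known to collect ribosomal RNA reads (CT010467.1, Lars2 and AY036118), against 0.892% to 7.45% in the other libraries. For the labelled cell type, 18 astrocyte markers had a summed level of 29330 to 36480 CPM (read counts scaled to a common library size by the TMM method). Aldh1l1 itself lay between 380 and 453 CPM. The 18 neuron markers summed to between 1748 and 3403 CPM, and 12 oligodendrocyte markers to between 634 and 1424 CPM. No library of unbound or input RNA is among those used here, so enrichment by the pull-down was not measured. In bulk pull-down RNA, fewer cells of a type and less RNA per cell cannot be told apart. Fmr1 measured 4.32, 4.22 and 1.32 CPM in the knockouts and 31.6, 38.4 and 37.0 CPM in the wild types, so each knockout library lay below each wild-type one.

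None of the 10 factors passed a test of the difference between the genotypes, and in each the libraries of the genotypes overlapped. The quasi-likelihood test of edgeR put 0 of 10 factors past the adjusted threshold of 0.05. It put 0% of all 14990 genes past it, and Fmr1 itself had an adjusted p of 0.2995. At an unadjusted p under 0.05 stood 0 of 10 factors, against 265 genes or 1.77% of all. DESeq2 passed 8 genes (0.0534%), edgeR's exact test 9 genes (0.06%) and limma voom 0 genes (0%), with 0 factors among them; Fmr1 passed with DESeq2 (adjusted p = 3.12e-16) and with edgeR's exact test (adjusted p = 1.68e-11). In 0 of 10 factors did every knockout library lie above, or every one below, the wild-type libraries. Among all genes 2.95% had such a gap upward and 3.25% downward. The log2 fold changes, knockout over wild type, were above 0 for 3 factors and below 0 for 7, with a median of -0.10 against -0.0019 over all genes tested. These values rest on the TMM scaling; without it the median difference in mean log2 level, over the 14682 genes above 0 in every library, shifts from -0.0015 to -0.489. In the authors' deposited table the smallest adjusted p among the 10 was 0.914, for Thbs2. CPM are not divided by transcript length, so the levels below are compared between libraries and not between genes.

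**Figure D1:**
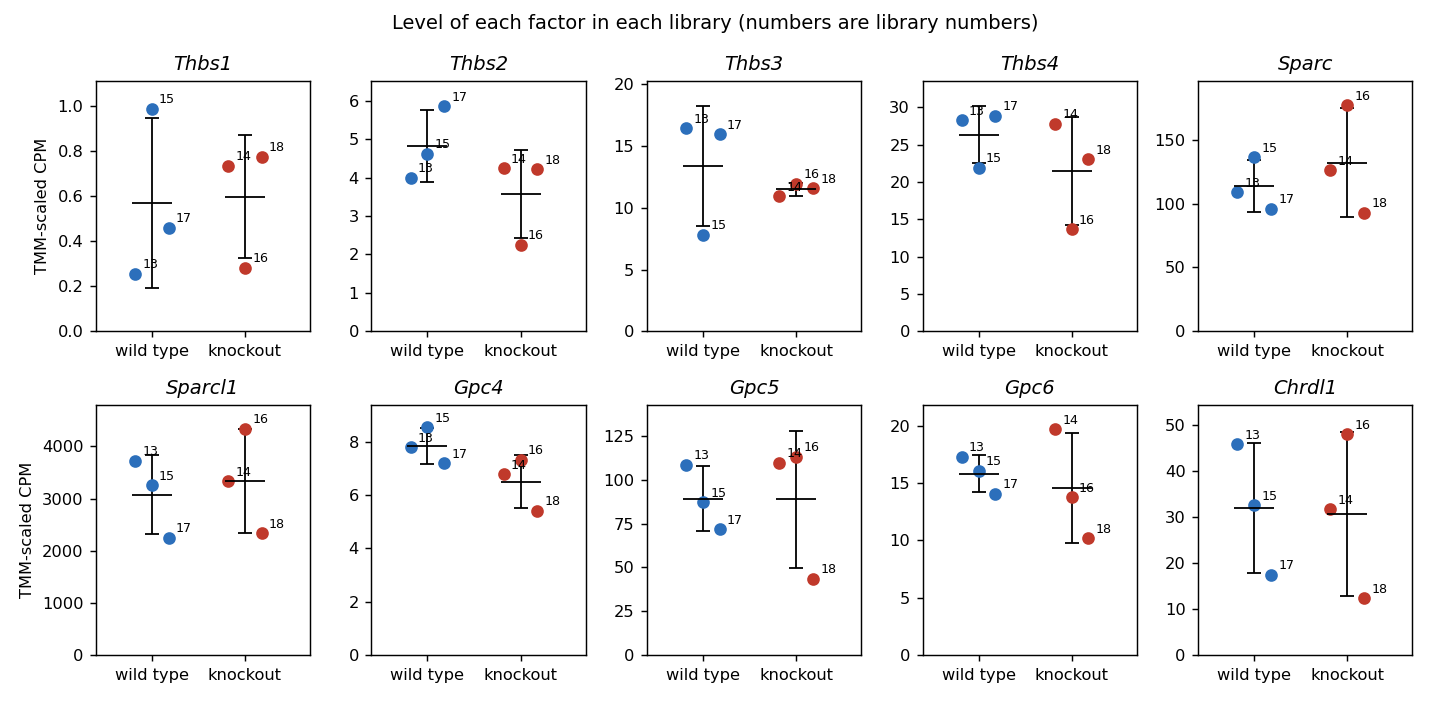
Level of each of the 10 factors in each library, in TMM-scaled CPM on linear axes from 0, wild type in blue and knockout in red, with library numbers beside the points; bars give the mean ± SD (n = 3 libraries each). In each panel the ranges of the genotypes overlap.

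Among the thrombospondins, Thbs2 and Thbs4 were lowest in library 16, at 16 and 97 counts, and highest in library 17. Bdnf, Wnt5a and Hs6st2, named further below, had the same lowest and highest libraries. The share of all genes with these extremes was not counted. The promoters of Thbs2 and Thbs4 are shown as a description, beside that of Gpc5. Gpc5 had its highest level in library 16, as did Sparc, Sparcl1 and Chrdl1. A link between the windows and the order of libraries was not tested. The windows, 5′ to 3′ on the gene's strand and from RefSeq on GRCm38.p6, run from 250 bases before to 50 bases after a start site. For Gpc5 that start is not the first base of the gene as given below. Thbs2 lies at chr17:14694213-14694512 (minus strand), Thbs4 at chr13:92794769-92795068 (minus strand) and Gpc5 at chr14:115091965-115092264 (plus strand). Capitals mark matches on either strand to the TATA box TATAAA, the GC box GGGCGG, the CCAAT box or the AP-1 site TGANTCA, none of which overlap.
Thbs2: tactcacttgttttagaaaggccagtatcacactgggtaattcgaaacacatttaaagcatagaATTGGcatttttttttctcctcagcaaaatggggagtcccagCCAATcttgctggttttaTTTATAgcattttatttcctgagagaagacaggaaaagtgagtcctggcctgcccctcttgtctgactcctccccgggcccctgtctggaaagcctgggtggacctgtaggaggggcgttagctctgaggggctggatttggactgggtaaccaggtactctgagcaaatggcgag
Thbs4: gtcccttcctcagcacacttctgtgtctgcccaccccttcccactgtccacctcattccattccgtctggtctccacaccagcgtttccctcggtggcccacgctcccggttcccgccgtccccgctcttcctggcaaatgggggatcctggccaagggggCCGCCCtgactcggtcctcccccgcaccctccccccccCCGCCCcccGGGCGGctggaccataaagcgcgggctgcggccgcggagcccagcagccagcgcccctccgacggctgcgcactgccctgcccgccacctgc
Gpc5: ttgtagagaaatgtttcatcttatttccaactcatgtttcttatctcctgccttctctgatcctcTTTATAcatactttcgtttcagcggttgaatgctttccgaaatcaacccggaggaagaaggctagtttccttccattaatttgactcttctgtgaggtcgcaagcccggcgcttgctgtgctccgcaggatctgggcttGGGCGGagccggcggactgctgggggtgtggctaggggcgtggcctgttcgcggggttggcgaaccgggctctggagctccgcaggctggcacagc
The windows of Thbs2 and Thbs4 had no motif of the 4 in common. The Thbs2 window held 1 TATAAA match and 2 CCAAT matches, and 48.3% of its bases were G or C. The Thbs4 window held 3 GC boxes and no other match, at 72% G or C. The Gpc5 window held 1 TATAAA match and 1 GC box, at 54.7% G or C. Of 32851 windows of all genes, 13.6% held TATAAA, 35.7% a GC box, 37.4% CCAAT and 7.81% the AP-1 letters, which were in 0 of these 3 windows. These are matches of letters and not shown to be binding sites. Windows were at hand for 6 of the 10 factors, and that of Sparc held 0 matches to the 4 motifs.

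Thbs2 encodes a thrombospondin of the trimeric kind, and lies on chromosome 17 from 14665500 to 14694262 (here and below from RefSeq on GRCm38.p6, which is the mm10 build of the counts). Its level was 4.24, 2.25 and 4.22 CPM in the knockouts, against 4.003, 4.62 and 5.85 CPM in the wild types. Knockout library 16 was the lowest, and the other knockout libraries lay among the wild-type ones. Group means were 3.57 ± 1.14 and 4.83 ± 0.943 CPM (SD, n = 3 each). Its log2 fold change of -0.41 (SE 0.32) was the farthest from 0 of the 10, and the 95% interval of the fold ran from 0.456 to 1.245 (edgeR, unadjusted p = 0.2315, adjusted p = 1.00). Library 16 held 16 counts of Thbs2, and with each library left out the log2 fold change ran from -0.55 (without 18) to -0.19 (without 16).

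Thbs4, a thrombospondin of the pentameric kind (chromosome 13, 92751586 to 92794818), stood at 27.8, 13.7 and 23.0 CPM in the knockouts. In the wild types it stood at 28.3, 21.9 and 28.9 CPM. Here too library 16 was apart on the low side, at 97 counts, and the remaining libraries of both genotypes shared a range. The log2 fold change was -0.28 (SE 0.25, edgeR, unadjusted p = 0.2933), and the 95% interval of the fold was 0.55 to 1.23. It was -0.06 without knockout library 16 and -0.51 without knockout library 14.

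Thbs3, the other pentameric thrombospondin among the factors (chromosome 3, 89215180 to 89226841), varied more among the wild types than among the knockouts. It stood at 16.4, 7.82 and 15.96 CPM in the wild types and at 10.9, 12.0 and 11.6 CPM in the knockouts. The knockout values fell inside the gap between wild-type library 15 and the others. The log2 fold change was -0.22 (SE 0.28), and the fold's 95% interval was 0.546 to 1.34. The estimate depended on single wild-type libraries: it was -0.49 without library 15 (edgeR, unadjusted p = 0.0382, adjusted p = 0.9999), -0.050 without library 13 and -0.079 without library 17. The RefSeq annotation places 1 long noncoding RNA over the Thbs3 gene, and its reads cannot be told apart where the counting strand is not given.

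Thbs1, a trimeric thrombospondin like Thbs2 (chromosome 2, 118111876 to 118127133), was near the limit of detection. Its summed counts were 9, 2 and 20 in the knockouts and 6, 25 and 12 in the wild types. On the scaled level these are 0.734, 0.282 and 0.774 CPM against 0.256, 0.988 and 0.459 CPM, with the genotypes mixed. The interval of its fold was the widest of the 10, from 0.40 to 3.08, so that neither a halving nor a doubling was detectable at this depth.

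Sparcl1 is a secreted matrix protein of astrocytes, and its gene (chromosome 5, 104079108 to 104114088) was read deeply, with 30825 to 87473 counts per library. Its level was 3329, 4340 and 2333 CPM in the knockouts and 3725, 3260 and 2245 CPM in the wild types. Each genotype had 1 library near the bottom of this range, 18 in the knockout and 17 in the wild type. Group means were 3334 ± 1003 and 3077 ± 757 CPM (SD, n = 3 each), with a log2 fold change of 0.12 (SE 0.26; fold 95% interval 0.711 to 1.65; exact permutation p = 0.7). Counting error is negligible at this depth, and the interval reflects the spread between libraries. The RefSeq annotation places 1 long noncoding RNA over this gene as well.

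Sparc, the gene of the matrix protein osteonectin that counteracts hevin at synapses (chromosome 11, 55394159 to 55420080), followed a similar order. It stood at 126, 177 and 92.8 CPM in the knockouts and at 109, 136 and 96.1 CPM in the wild types. Library 16 was again highest, and libraries 17 and 18 were again lowest. The log2 fold change of 0.21 (SE 0.24, with a 95% interval of the fold from 0.786 to 1.71) was the highest of the 10, and without knockout library 16 it was -0.05. Microglia and endothelium also make Sparc. All 12 microglia markers summed to between 56.9 and 65.7 CPM in knockout libraries and between 63.1 and 79.6 CPM in wild-type libraries. The 12 endothelial markers summed to between 71.1 and 97.9 CPM in the knockout and between 59.0 and 106.2 CPM in the wild type, of which Slc2a1, a glucose transporter that is not only endothelial, gave 45.3 to 97.4 CPM. The defining endothelial marker Cldn5 was at most 2.94 CPM, Kdr was at 0 in library 16 and Emcn was at 0 in libraries 14, 15 and 16. The part of these cells in the Sparc level was not tested.

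Among the glypicans, Gpc4 was the steadiest of the 10 factors. Its gene lies on the X chromosome, from 52051007 to 52164923, as does Fmr1, from 68678536 to 68717963. Gpc4 stood at 6.77, 7.32 and 5.42 CPM in the knockouts and at 7.79, 8.53 and 7.19 CPM in the wild types. Of the knockout libraries, 16 alone lay above the lowest wild-type library, by 7.32 to 7.19 CPM. Group means were 6.503 ± 0.980 and 7.84 ± 0.670 CPM (SD, n = 3 each; log2 fold change -0.28, SE 0.21; fold 95% interval 0.587 to 1.155). Its unadjusted p of 0.2232 was the smallest of the 10 (edgeR, adjusted p = 1.00), and the exact permutation p was 0.2. The level rested on 52 to 216 counts per library. In each of 17 other fits or library sets its log2 fold change was below 0, from -0.52 to -0.16, and the smallest adjusted p among them was 0.867.

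Gpc6, the other glypican shown to recruit AMPA receptors (chromosome 14, 116924920 to 117979529), stood at 19.7, 13.8 and 10.2 CPM in the knockouts. In the wild types it stood at 17.3, 16.1 and 14.1 CPM. Knockout library 14 was the highest and knockout libraries 16 and 18 were the lowest, with the wild types in between. The log2 fold change was -0.12 (SE 0.25), and the fold's 95% interval was 0.617 to 1.36.

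Gpc5 (chromosome 14, 115092201 to 116525192) is a glypican gene with high expression in astrocytes. It stood at 109.8, 113 and 43.6 CPM in the knockouts and at 108, 87.2 and 71.7 CPM in the wild types. Knockout library 18 was far below the other libraries, and the other knockout libraries were at the top. The group means were nearly equal, at 88.8 ± 39.2 and 89.1 ± 18.5 CPM (SD, n = 3 each). The log2 fold change was -0.0096 (SE 0.34) and the fold's 95% interval 0.579 to 1.71. Without library 18 the log2 fold change was 0.32. RefSeq places 3 other genes that overlap Gpc5 and 5 that overlap Gpc6, all noncoding or pseudogenes.

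Chrdl1, the BMP antagonist (X chromosome, 143285674 to 143394263), had the widest range of the 10 relative to its level, apart from a similar ratio at the few counts of Thbs1. It stood at 31.7, 48.0 and 12.4 CPM in the knockouts and at 45.7, 32.5 and 17.5 CPM in the wild types. The highest library was 3.88-fold above the lowest, and both were knockout. Group means were 30.7 ± 17.8 and 31.9 ± 14.1 CPM (SD, n = 3 each; log2 fold change -0.08, SE 0.49). The 95% interval of the fold, 0.439 to 2.05, therefore spans more than a halving and a doubling. The SD of log2 CPM within genotypes was 0.863 for Chrdl1, at the 93.9th percentile of all genes tested, and 0.591 for Gpc5, at the 85.5th. It was 0.179 for Gpc4, at the 26.3rd.

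**Figure D2:**
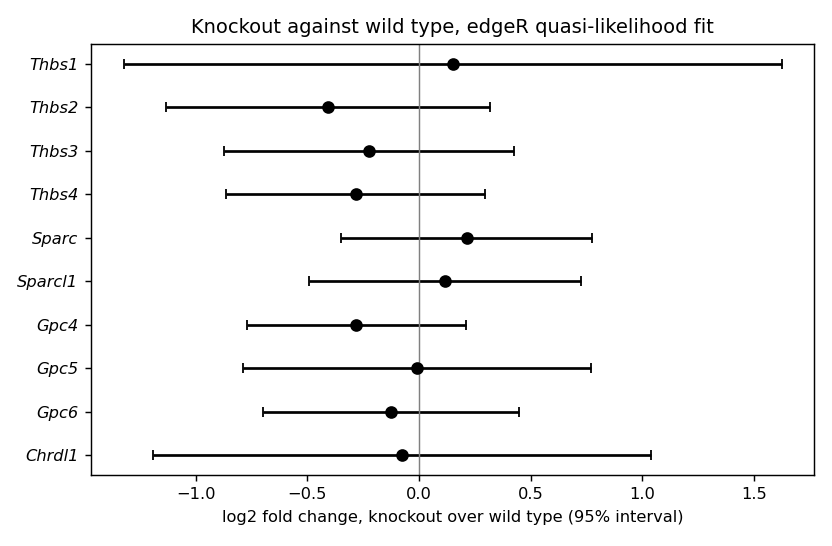
Log2 fold change of each factor, knockout over wild type, from edgeR's quasi-likelihood fit on 6 libraries; points are estimates and bars 95% intervals. Each interval spans 0, with Gpc4 the narrowest and Thbs1 the widest.

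Several of the factors shared an order of libraries that crossed the genotypes. In 4 of the 10 factors, Sparc, Sparcl1, Gpc5 and Chrdl1, libraries 17 (wild type) and 18 (knockout) were the pair with the lowest levels, and library 16 the highest. The same pair was lowest in 13 of 18 astrocyte markers and in 16% of all genes tested, and highest in 12 of 18 neuron markers, 8 of 12 oligodendrocyte markers and 14.4% of all genes tested. Relative to the wild-type mean, the median of the astrocyte markers was -0.35 and -0.32 (log2) in libraries 17 and 18, against 0.07 to 0.24 in the others. The median of the neuron markers was 0.40 and 0.52 in libraries 17 and 18, and -0.60 and -0.18 in libraries 13 and 16. That of the oligodendrocyte markers was 0.48 and 0.65 in libraries 17 and 18, and -0.52 and -0.70 in libraries 13 and 16. The part of these differences between libraries in the levels of the factors was not tested. The order was noticed in these data and describes these 6 libraries.

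Set against the median of the astrocyte markers in the same library, Sparcl1 was nearly level. On this scale it lay between -0.05 and 0.15 (log2, relative to the wild-type mean) in all 6 libraries, with a difference of 0.08 between the genotypes (exact permutation p = 0.3). Sparc lay at -0.39 in library 13 and between 0.11 and 0.28 in the other libraries, with library 17 the highest. Gpc5 and Chrdl1 did not become level: in library 18 Gpc5 lay at -0.62 and Chrdl1 at -0.87, against -0.18 to 0.33 and -0.25 to 0.28 in the other libraries. For Thbs2 and Thbs4 library 16 stood farther from the rest on this scale, at -1.511 and -1.395 (to be read with 16 and 97 counts). The ratio of highest to lowest library was 3.88 for Chrdl1 and 2.59 for Gpc5, above each of the 18 astrocyte markers, which ran from 1.14 to 2.45. Thbs1 at 3.87 (on few counts) and Thbs2 at 2.599 were above each marker too. For Sparcl1 the ratio was 1.93, and 8 of the 18 markers were wider.

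**Figure D3:**
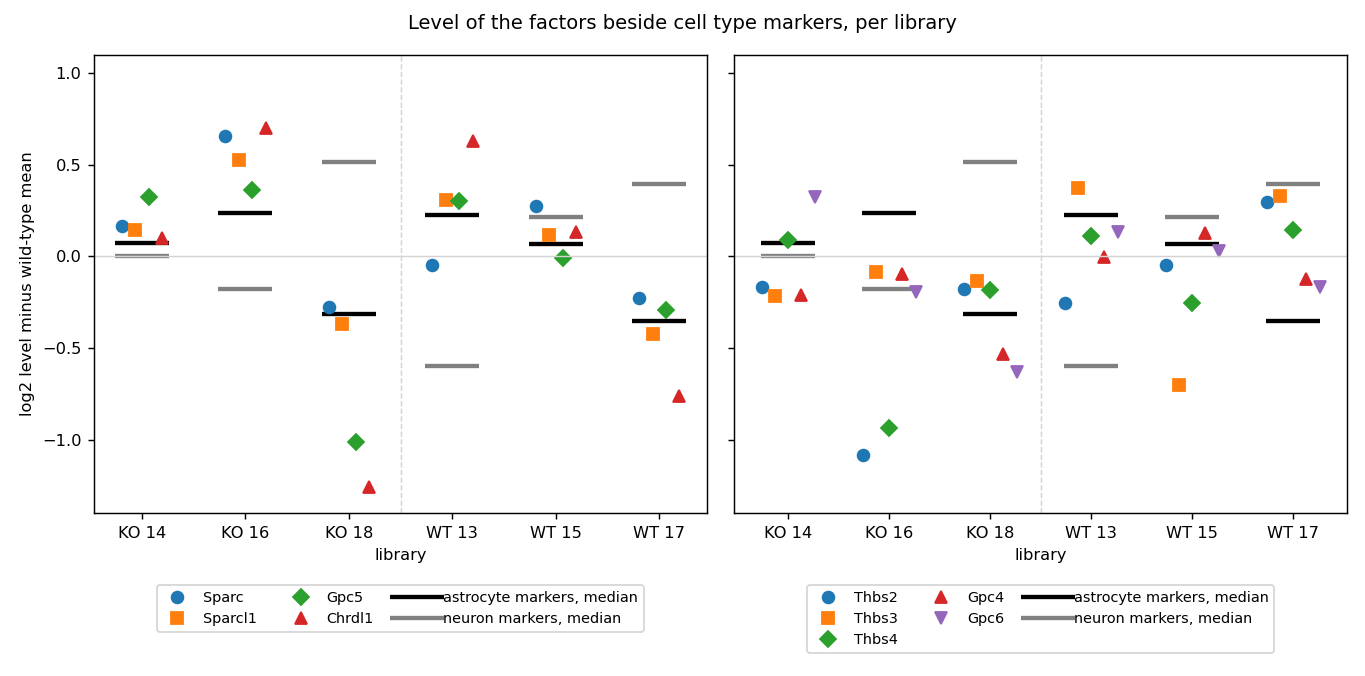
Log2 level of 9 factors in each library minus the mean of the wild-type libraries (Thbs1 is left out for its few counts), with horizontal bars for the median of the astrocyte (black) and neuron (grey) markers on the same scale. The left panel holds the 4 factors picked because libraries 17 and 18 were their lowest. The contrast between the panels is set by that choice. In libraries 17 and 18 astrocyte markers are low and neuron markers high. The factors of the right panel do not share that order, though Gpc4 and Gpc6 too are lowest in library 18.

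The titles carry a code that starts with 5 in libraries 13, 14 and 16 and with 6 in libraries 15, 17 and 18, and the labels do not say what it stands for. Within code 5 the difference between 2 knockout libraries and 1 wild-type library was 0.04 for Gpc5, -0.23 for Chrdl1 and 0.46 for Sparc (log2). Within code 6, with 1 knockout library against 2, the difference was -0.86 for Gpc5, -0.94 for Chrdl1 and -0.30 for Sparc. For Gpc4 both were below 0, at -0.14 and -0.52, and for Thbs2 at -0.36 and -0.30. Thbs4 was at -0.53 and -0.13, Sparcl1 at 0.03 and -0.21, Gpc6 at -0.07 and -0.56, and Thbs3 at -0.52 and 0.05. The direction thus held in both codes for Gpc4, Gpc6, Chrdl1, Thbs2 and Thbs4, and for Thbs1 at its few counts, with no test within a code.

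The ribosomal RNA share was highest in knockout library 16, then 14, then 18. Gpc5, Chrdl1, Sparc, Sparcl1 and Gpc4 had the same order among the knockouts. The share of all genes with this order was not counted. Among the wild types the ribosomal RNA share was 7.45% in library 15, 1.75% in 17 and 0.939% in 13. These genes did not have that order, as each was lowest in library 17 among the wild types. With that share as a covariate the log2 fold change was -0.89 for Gpc5 (SE 0.28, unadjusted p = 0.0144) and -1.26 for Chrdl1 (SE 0.48, unadjusted p = 0.0335), both with an adjusted p of 0.860 by edgeR. In that fit 2 of 10 factors were at an unadjusted p under 0.05, against 5.56% of all genes. The fit leans on library 18 as the one knockout library with a low share. With libraries 14 and 16 left out, library 18 alone stood for the knockout and was assumed to vary like the wild type, and the values were -1.01 and -1.34. With the neuron marker median as a covariate they were 0.03 and 0.02. Which of these differences between libraries the 2 genes follow was not tested.

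**Figure D4:**
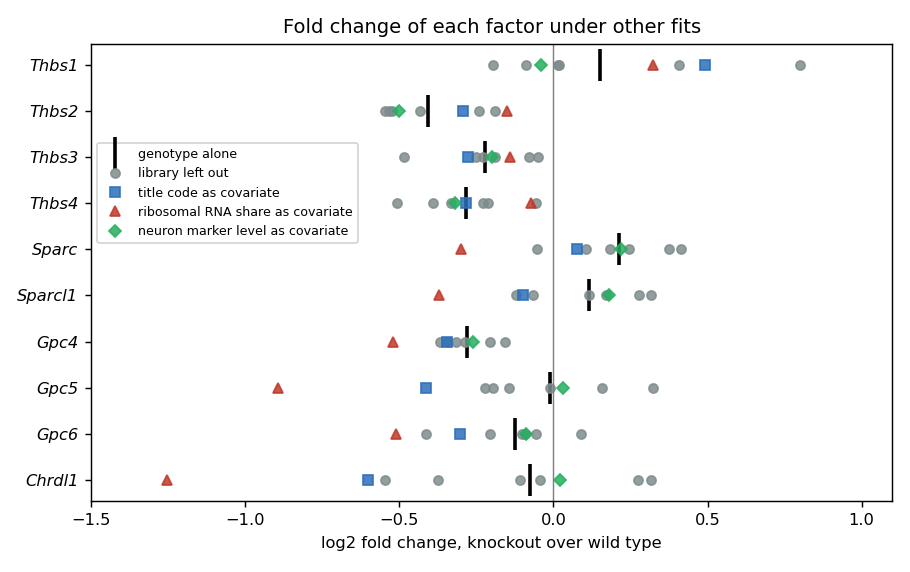
Log2 fold change of each factor, knockout over wild type, with genotype alone (black bar), with each library left out in turn (grey) and with a covariate (coloured). Thbs2, Thbs3, Thbs4 and Gpc4 lie below 0 in each fit drawn; Gpc5 and Chrdl1 spread from -0.89 and -1.26 to 0.32.

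No receptor or partner of the factors on neurons and astrocytes passed the test either. Of 17 genes 16 were tested, 6 stood higher and 10 lower in the knockout, and 0 passed edgeR's adjusted threshold, with 0 at an unadjusted p under 0.05 and a median log2 fold change of -0.02. The AMPA receptor gene Gria1 measured 48.6 ± 1.93 against 66.3 ± 40.1 CPM (SD, n = 3 each), with wild-type library 17 at 109.2 CPM, and its log2 fold change went from -0.45 to 0.12 without that library. Stim1 and Gpr158, the latter a receptor of glypican Gpc4, had log2 fold changes of 0.16 and 0.12. Without wild-type library 13 the value for Gpr158 was 0.027, and without knockout library 18 it was 0.034.

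Relatives of the factors were tested for 10 of 12 genes, 6 higher and 4 lower, with a median log2 fold change of 0.04 and 0 past edgeR's adjusted threshold. Smoc2, a secreted matrix gene of the SPARC family, was the 1 gene at an unadjusted p under 0.05. It stood at 1.14, 0.563 and 1.12 CPM in the knockouts and at 2.17, 1.698 and 1.91 CPM in the wild types, so that each knockout library was below each wild-type one. Its log2 fold change was -0.98 (SE 0.40, edgeR, unadjusted p = 0.0403, adjusted p = 1.00). It rested on 14, 4 and 29 counts in the knockouts, and with each library left out the unadjusted p by edgeR was 0.0598 to 0.107. The glypican gene Gpc1 measured 32.6 ± 6.53 against 27.4 ± 5.095 CPM, Chrd, which encodes chordin, 5.94 ± 0.762 against 4.65 ± 1.504 CPM, and the follistatin-like gene Fstl1 25.5 ± 5.21 against 28.8 ± 7.68 CPM (SD, n = 3 each).

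In the BMP pathway, on which Chrdl1 acts, 23 of 25 genes were tested, 12 higher and 11 lower, with a median log2 fold change of 0.0089 and 0 past the threshold or at an unadjusted p under 0.05. Smad7, an inhibitory Smad that BMP signalling induces, had the smallest p. It stood at 8.73, 9.43 and 11.4 CPM in the knockouts and at 6.47, 6.91 and 8.53 CPM in the wild types. The knockout libraries lay above the wild-type ones, by 8.73 to 8.53 CPM at the nearest (log2 fold change 0.44, SE 0.21, edgeR, unadjusted p = 0.0712). Id1, a target of BMP signalling, measured 62.3 ± 7.57 against 50.03 ± 7.13 CPM, with overlap between the genotypes (log2 fold change 0.32, SE 0.16). The ligand gene Bmp6 measured 7.70 ± 1.76 against 11.2 ± 4.95 CPM and the receptor Smad gene Smad9 22.9 ± 4.18 against 26.0 ± 0.261 CPM (SD, n = 3 each). The receptor gene Acvr2b, named after its values were seen, was the other gene of the list without overlap, at 2.45 ± 0.390 against 1.78 ± 0.181 CPM. It rested on 27, 16 and 75 counts in the knockouts, and its unadjusted p by edgeR was 0.1802. Such a gap upward was seen in 2.95% of all genes.

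Other genes of astrocytes reported to act on synapses were tested for 24 of 25, 10 higher and 14 lower, with a median log2 fold change of -0.05 and 0 past edgeR's adjusted threshold. Bdnf, the gene of the neurotrophin BDNF that neurons make in the main, was the 1 gene at an unadjusted p under 0.05. It stood at 5.55, 3.66 and 3.98 CPM in the knockouts and at 6.81, 7.35 and 7.998 CPM in the wild types. Each knockout library was below each wild-type library. The summed neuron markers ran from 2415 to 3403 CPM in the knockouts and from 1748 to 3192 CPM in the wild types. The part of neuronal RNA in the Bdnf level was not tested. The log2 fold change was -0.74 (SE 0.24, edgeR, unadjusted p = 0.0145, adjusted p = 1.00), and without each library in turn it ran from -0.94 to -0.64. Wnt5a, a secreted Wnt ligand, also showed no overlap, at 3.50 ± 0.302 against 5.13 ± 1.07 CPM, as did the protocadherin gene Pcdhgc5, named after its values were seen, at 55.5 ± 1.38 against 62.0 ± 1.72 CPM (SD, n = 3 each). Their unadjusted p by edgeR was 0.0747 for Wnt5a and 0.2068 for Pcdhgc5. Such a gap downward was seen in 3.25% of all genes. Efna3, an ephrin, and Slit2, a guidance cue, had log2 fold changes of 0.34 and 0.18. Without knockout library 16 the value for Efna3 was 0.13.

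Enzymes of the heparan sulfate chains that glypicans carry were tested for 20 of 21 genes, 9 higher and 11 lower, with a median log2 fold change of -0.03 and 0 past edgeR's adjusted threshold. Hs6st2, a sulfotransferase, measured 4.30 ± 0.802 against 6.61 ± 2.15 CPM. Extl1, a chain-elongating enzyme, measured 26.1 ± 13.02 against 41.0 ± 10.4 CPM, with knockout libraries 14 and 16 at 17.2 and 20.1 CPM and knockout library 18 at 41.1 CPM. On the other side Ndst3, a sulfotransferase that also removes acetyl groups, measured 6.34 ± 1.73 against 4.11 ± 2.15 CPM, and Hs3st5, a sulfotransferase, 2.86 ± 0.109 against 2.44 ± 0.373 CPM (SD, n = 3 each). Over the 5 lists, 93 genes were tested, of which 2 were at an unadjusted p under 0.05, against 1.77% of all genes. In 2 of the 93 every knockout library was above, and in 5 below, every wild-type library, where 2.95% and 3.25% of all genes were.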

How the data were processed

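The deposited count table holds expected counts from RSEM per gene and entry, unscaled, per the file headers; per the submitters' processing notes the tools were STAR 2.5.3a, RSEM 1.3.0 and edgeR, on mm10. Strand setting and annotation release: not given in the sources used here. A comparison table that the authors deposited gives log2 fold changes, log2 CPM, p-values and a scaled signal per entry, per the file headers; only the first 3 were read here, and its test is not stated.

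The 2 entries of each of 6 libraries were summed and rounded to whole numbers. Each library counted as 1 sample because its entries share a library number. In 60 pairs of entries (10 factors, 6 libraries) a binomial test gave a smallest adjusted p of 0.629, which cannot show that entries are equal. Over features with at least 20 counts, chi-square per degree of freedom between entries was 1.17 (library 16) to 2.33 (library 18). Between first entries of different libraries of a genotype it was 17.8 to 406. Genes were filtered with filterByExpr (14990 left), scaled by TMM and tested with edgeR 4.0.16's quasi-likelihood F test (R 4.3.3) over all genes, with Benjamini-Hochberg adjustment, a threshold of 0.05 and 8.24 degrees of freedom. SE and 95% intervals were taken from the F statistic. DESeq2 1.42.0, edgeR's exact test and limma 3.58.1 voom were alternatives, and the fits were tested on simulated data. The exact two-sided permutation test over 6 libraries cannot go below p = 0.1. Members and lists were chosen with earlier results of these data known. Named were the members and, per list, up to 2 higher and 2 lower genes with the smallest p. One gene that this rule names is not reported here.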

Additional observations from a re-analysis of the deposited data

How the results depend on the processing

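No factor passed an adjusted p of 0.05 in any of the 17 alternatives. No paired analysis was possible because the groups share no library number; the title code, which they do share, was fitted as a covariate. Over all genes the count past the threshold was 6 without a filter on low counts, 8 with DESeq2, 9 with edgeR's exact test and 1 when ribosomal RNA share was added as a covariate. It was 0 to 2 with a library left out: 1 without wild-type library 15, 2 without knockout library 18 and 0 otherwise. Fmr1 passed in the first 4 of these fits and without library 18. Without TMM scaling 5 of 20 group levels of the factors moved by over 1 SD.

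Directions turned (log2 fold change) on adding ribosomal RNA share for Sparc (-0.30), Sparcl1 (-0.37) and Stim1 (-0.040). They turned without libraries 14 and 16 for Sparc (-0.27), Sparcl1 (-0.37) and Extl1 (0.028), with the title code as a covariate for Sparcl1 (-0.10), and with the neuron marker level for Thbs1 (-0.041), Gpc5 (0.030) and Chrdl1 (0.021). Gpc5 was at 0.00022 with DESeq2 size factors and 0.0023 with DESeq2. The fits without libraries 14 and 16 and with the neuron marker level were chosen after seeing the data. With each library left out, values ran from -0.19 to 0.80 for Thbs1, -0.55 to -0.19 for Thbs2, -0.49 to -0.050 for Thbs3, -0.51 to -0.055 for Thbs4, -0.37 to -0.16 for Gpc4, -0.054 to 0.41 for Sparc, -0.12 to 0.32 for Sparcl1, -0.22 to 0.32 for Gpc5, -0.41 to 0.091 for Gpc6, -0.55 to 0.32 for Chrdl1, -0.0059 to 0.25 for Stim1, -0.80 to 0.12 for Gria1, -0.38 to 0.00098 for Fstl1 and -0.039 to 0.42 for Slit2. Efna3 kept its direction, at 0.13 to 0.47, and was at 0.056 on adding ribosomal RNA share. Thbs1 was not fitted on first entries only, where it fell under the filter. The cause of these changes was not tested. Total counts of 10953978 in library 16 limit the low genes most: it held 2 counts of Thbs1 and 16 of Thbs2.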
